A study of Mus musculus with 2 samples.

Results

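The genes described here are 10 regulators of cell cycle entry and ploidy, chosen by name out of the 43280 gene symbols that were counted. They are the D-type cyclins Ccnd1, Ccnd2 and Ccnd3, the Cip/Kip inhibitors Cdkn1a, Cdkn1b and Cdkn1c, the atypical E2F factors E2f7 and E2f8, and Trp53 with its ubiquitin ligase Mdm2. All 10 symbols were found, with reads in both libraries and at least 10 reads in total. RNA sequencing was performed on 1 library of mature hepatocytes (MHs) and 1 library of small hepatocytes (SHs), which the labels call hepatocyte progenitors. Both fractions came from the liver of the same C57BL6 mice, labelled as 20 weeks old, after collagenase perfusion. The methods name 3 healthy adult mice and a younger age range. The MHs were the pellet of a first slow spin, and the SHs were pelleted from its supernatant by a faster spin. Percoll centrifugation removed dead cells from both fractions, and no sort was used for the MHs. FACS purification of the SHs kept cells that were CD31-, CD45-, EpCAM- and ICAM-1+.

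D-type cyclins bind Cdk4 and Cdk6 and start the phosphorylation of the retinoblastoma protein, which releases E2F factors and commits a cell to S phase. The Cip/Kip proteins p21, p27 and p57 bind cyclin-Cdk complexes and hold the cell in G1. E2F7 and E2F8 repress E2F target genes without a dimer partner, and in the liver they are known for promoting polyploid hepatocytes. The tumour suppressor p53 induces p21 and also Mdm2, which in turn marks p53 for degradation. In the adult liver most hepatocytes are quiescent and many are polyploid, and cyclin D1 is the D-type cyclin best known for driving their growth after tissue loss.

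Promoters are shown because E2f7 and E2f8 are textbook targets of activating E2Fs, and Cdkn1a of p53. RefSeq promoter windows of GRCm38.p6, 250 bases before each transcription start, were at hand for 7 of the 10 genes, in 9 windows. The genes without one were Ccnd1, Ccnd2 and Cdkn1c. Windows were searched on both strands for the E2F letters TTGGCGC and TTCCCGC, which do not overlap each other, and for the p53 half-site. The 3 windows below hold the most matches among the E2F factors and the inhibitors. Each is written 5′ to 3′ along the gene's strand, with E2F letters in capitals for E2f7 and E2f8 and half-sites in capitals for Cdkn1a.
E2f7, chr10:110745189-110745438, plus strand: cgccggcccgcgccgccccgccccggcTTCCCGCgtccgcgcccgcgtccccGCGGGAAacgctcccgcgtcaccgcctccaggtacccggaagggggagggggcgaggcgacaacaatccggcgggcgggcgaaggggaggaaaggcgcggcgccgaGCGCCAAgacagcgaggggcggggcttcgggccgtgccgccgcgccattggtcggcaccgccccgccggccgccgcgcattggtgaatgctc
E2f8, chr7:48881597-48881846, minus strand: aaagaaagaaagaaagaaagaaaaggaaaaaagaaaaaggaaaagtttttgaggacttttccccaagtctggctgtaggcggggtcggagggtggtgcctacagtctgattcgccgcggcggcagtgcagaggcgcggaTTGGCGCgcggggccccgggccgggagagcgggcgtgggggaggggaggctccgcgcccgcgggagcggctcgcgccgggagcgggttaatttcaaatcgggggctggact
Cdkn1a, first start, chr17:29090729-29090978, plus strand: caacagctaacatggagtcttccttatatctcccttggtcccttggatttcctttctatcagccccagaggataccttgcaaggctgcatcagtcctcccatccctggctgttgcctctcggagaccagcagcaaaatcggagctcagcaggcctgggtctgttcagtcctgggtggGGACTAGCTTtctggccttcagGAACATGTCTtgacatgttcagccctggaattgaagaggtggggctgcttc
The E2f7 window held 3 E2F matches, whose first bases lay 223, 198 and 92 bases before the start, and the E2f8 window held 1, at 111 bases. No other member window held these letters, whereas 5.62% of all 32851 promoter windows of the same length did. The letters are rich in G and C, which made up 79.2% of the E2f7 window and 62.4% of the E2f8 window. The share over all windows was not matched for base composition. The Cdkn1a window of the first start held 2 p53 half-sites, at 73 and 51 bases before that start, and the window of its second start held 0. Mdm2 had 1 half-site at 186 bases and Trp53 had 1 at 75 bases, and 7.13% of all windows held at least 1. A match describes the letters and is not evidence of binding.

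The library of MHs held 16979136 counted reads on 19954 genes and that of SHs 42356444 on 23512 genes. Levels are given as reads per 1000000 counted reads (RPM), and 3 reads, taken as the smallest level the depth could show, were 0.177 RPM in MHs and 0.0708 in SHs. Ratios are log2 values of SHs over MHs, taken after adding 0.5 reads to each count. Fold values and all intervals were taken from the counts without added reads, so a fold can differ slightly from its log2 ratio. The 95% Clopper-Pearson interval covers counting error only, because each group had 1 library and the reads carried no molecular identifiers. No test between the groups was possible, and "lower" and "higher" below mean an interval wholly on one side of 0. Both libraries held the hepatocyte markers at high levels, with 945837 reads of Alb, the albumin gene, in MHs and 2577617 in SHs. Markers of other liver cells differed between the libraries. The summed level of 10 endothelial markers was 80.2 RPM in MHs and 4.39 in SHs, that of 8 macrophage markers was 27.4 and 0.850, and that of 8 stellate cell markers was 20.1 and 2.27. All 10 endothelial markers, 7 of 8 macrophage markers and each of the 7 stellate markers that reached 10 reads were lower in the SH library. In bulk samples, fewer cells of a type and less RNA per cell cannot be told apart.

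Levels of the 10 genes ran from 0.294 to 22.0 RPM in MHs and from 0.189 to 24.0 RPM in SHs. Ccnd1, Ccnd2 and E2f8 were lower in SHs, Trp53 was slightly higher, and the intervals of the other 6 genes included 0, widely so for Cdkn1c and E2f7. Among all 15521 genes with at least 10 reads, 15.5% were lower and 16.8% were higher by the same rule. Ccnd2 and E2f8 were at least 2-fold lower with an interval under 0, as were 4.46% of all genes, and no member was at least 2-fold higher, against 2.00% of all genes. Both had fewer than 100 reads, and among the 4580 genes with 10 to 99 reads the share at least 2-fold lower was 12.3%. The median log2 ratio of the 10 genes was -0.12, and that of all genes was 0.02, with quartiles of -0.22 and 0.21. These shares describe 2 libraries and do not set the members apart from other genes.

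**Figure D1:**
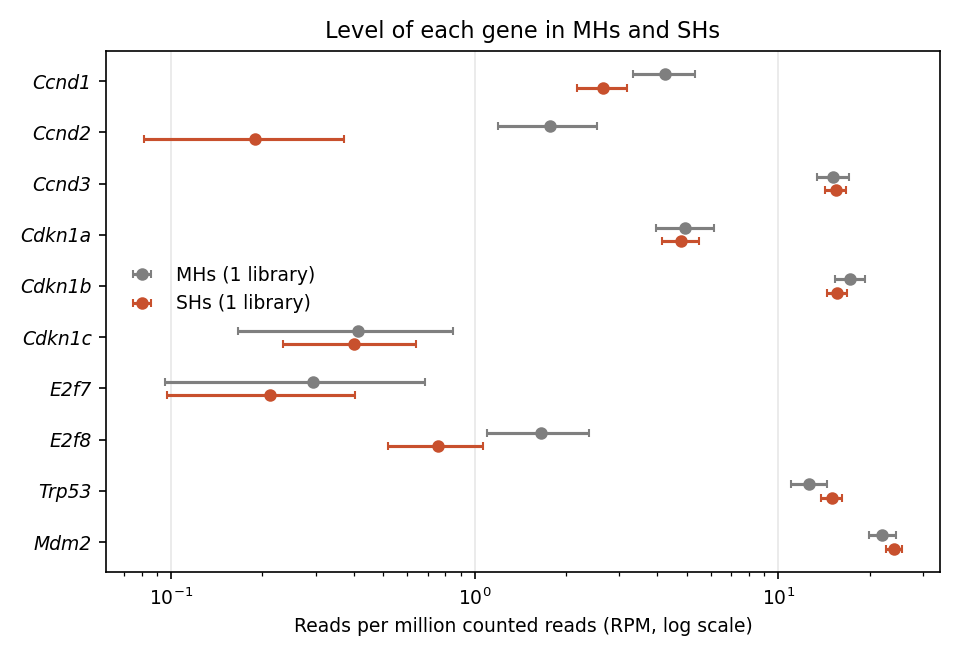
Level of each of the 10 genes in the library of MHs and the library of SHs, in RPM on a log axis, grouped by role, with 95% intervals for counting error. Ccnd2 shows the widest gap, from 1.77 RPM in MHs to 0.189 in SHs, and Mdm2 has the most reads of the 10 genes in both libraries.

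Per exon length, Mdm2 was the highest of the 10 genes in both libraries, at 4.33 RPKM in MHs and 4.73 in SHs. RPKM here divides RPM by the summed length of all annotated exons in kilobases. In MHs the order after Mdm2 was Cdkn1b, Trp53, Ccnd3, Cdkn1a, Ccnd1, E2f8, Cdkn1c, Ccnd2 and E2f7. In SHs Trp53 stood before Cdkn1b, at 3.71 against 3.43 RPKM, and Ccnd2 was last, at 0.0201 RPKM. With the longest transcript as the length, Ccnd3 had 3.94 RPKM in MHs, beside 3.87 for Trp53 and 3.79 for Cdkn1b. The order of these 3 genes therefore depended on the length used, whereas Mdm2 stayed first.

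The D-type cyclins did not move together. Ccnd1 (chromosome 7, 144929931 to 144939925 of mm10, minus strand) encodes cyclin D1 and had 72 MH reads and 112 SH reads. Its level was 4.24 RPM in MHs against 2.64 in SHs, which is a log2 ratio of -0.68 (95% interval -1.12 to -0.23), or 1.60-fold higher in MHs (1.18 to 2.18). Among the 2973 genes with a similar number of reads (0.5 to 2 times), 5.21% had a lower ratio than Ccnd1. Cyclin D1 is a known target of Wnt signalling, which is strongest near the central vein. All 10 central vein side markers in the list were lower in SHs, at a median log2 ratio of -1.83, and all 9 portal vein side markers were higher, at a median of 0.50. Both lists were chosen with earlier results of these data known. Over all genes with at least 10 reads, 15.5% were lower and 16.8% were higher. The part of this zonal difference in the Ccnd1 ratio was not tested, nor was that of the other liver cells whose markers were lower in SHs.

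Ccnd2 (chromosome 6, 127125162 to 127152193, minus strand) encodes cyclin D2 and had the lowest ratio of the 10 genes. It had 30 MH reads and 8 SH reads, although the library of SHs was the deeper one. Its level was 1.77 RPM in MHs against 0.189 in SHs, which is a log2 ratio of -3.16 (-4.56 to -2.07), or 9.35-fold higher in MHs (4.19 to 23.6). Among all genes with at least 10 reads, 1.57% had a lower ratio, and among the 2664 genes with a similar number of reads the share was 4.39%. The median log2 ratio was -4.94 for the endothelial markers (-4.74 with Lyve1, which had 0 SH reads, at its bound), -5.06 for the macrophage markers and -2.79 for the stellate markers. Stab2, the endothelial marker with the most reads in MHs, had 338 MH reads and 119 SH reads, Mrc1, that of macrophages, had 213 and 1, and Reln, that of stellate cells, had 130 and 64. The part of these cells in the Ccnd2 reads was not tested.

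Ccnd3 (chromosome 17, 47505051 to 47599691, plus strand), which encodes cyclin D3, held most of the D-type cyclin reads in both libraries. It had 258 MH reads and 655 SH reads, levels of 15.2 and 15.5 RPM, and a log2 ratio of 0.02 (-0.18 to 0.24). The share of Ccnd3 among the reads of the 3 cyclins was 71.7% (66.7 to 76.3) in MHs and 84.5% (81.8 to 87.0) in SHs, and these intervals did not overlap. That of Ccnd2 was 8.33% (5.69 to 11.7) in MHs and 1.03% (0.447 to 2.02) in SHs. The share of Ccnd1 was 20.0% (16.0 to 24.5) and 14.5% (12.1 to 17.1), with overlapping intervals.

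Shares within a library and differences between 2 genes' log2 ratios do not depend on how the libraries are scaled. The log2 ratio of Ccnd1 was 0.71 below that of Ccnd3 (difference -0.71, -1.20 to -0.21). That of Ccnd2 minus that of Ccnd3 was -3.25 (-4.60 to -2.06). That of Ccnd1 minus that of Ccnd2 was 2.53 (1.28 to 3.95), so Ccnd2 had the lowest ratio of the 3. The summed level of the 3 cyclins was 21.2 RPM in MHs against 18.3 in SHs, which is a log2 ratio of -0.21 (-0.39 to -0.03). When the 10 most counted genes were taken out of the library totals, the sum had an interval of -0.36 to 0.00 that included 0.

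**Figure D2:**
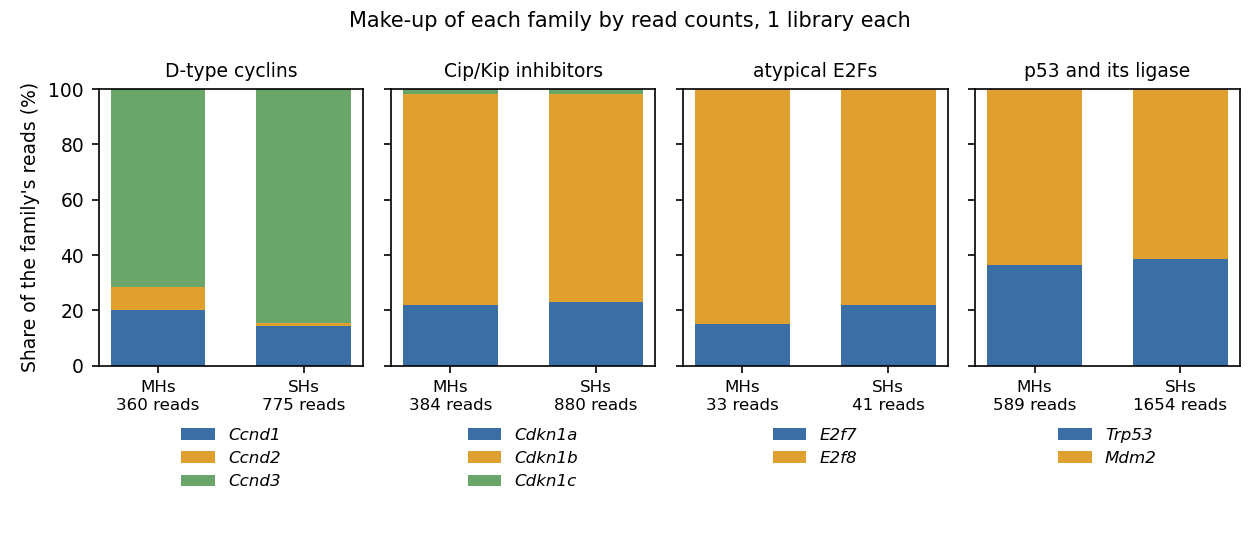
Share of each gene among the reads of its family, in percent, as stacked bars for MHs and SHs, with 1 panel per family, the family's reads under each bar, and colours that stand for genes within a panel only. Ccnd3 takes 71.7% of the D-type cyclin reads in MHs and 84.5% in SHs, whereas the shares of the Cip/Kip inhibitors nearly coincide.

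The Cip/Kip inhibitors showed no difference beyond counting error. Cdkn1a (chromosome 17, 29090976 to 29100727, plus strand) encodes p21, the inhibitor induced by p53, and had 84 MH reads and 202 SH reads. Its level was 4.95 RPM in MHs against 4.77 in SHs, which is a log2 ratio of -0.06 (-0.43 to 0.33). Cdkn1b (chromosome 6, 134920401 to 134925513, plus strand) encodes p27, which marks quiescent cells, and had the most reads of the 3. It had 293 MH reads and 661 SH reads, levels of 17.3 and 15.6 RPM, and a log2 ratio of -0.15 (-0.35 to 0.06). Cdkn1c (chromosome 7, 143458339 to 143461050, minus strand) encodes p57 and is an imprinted gene. Its 7 MH reads and 17 SH reads gave a log2 ratio of -0.10 with an interval of -1.38 to 1.47, so a 2-fold difference either way was not detectable at this depth.

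The makeup of the inhibitor reads was close in the 2 libraries. Cdkn1b took 76.3% of them in MHs and 75.1% in SHs, Cdkn1a 21.9% and 22.95%, and Cdkn1c 1.82% and 1.93%. The log2 ratios of Cdkn1a and Cdkn1b differed by 0.09 (-0.34 to 0.53). The summed level of the 3 inhibitors was 22.6 RPM in MHs against 20.8 in SHs, which is a log2 ratio of -0.12 (-0.30 to 0.05).

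The atypical E2F factors had few reads, and their sum, most of which was E2f8, was lower in SHs. The summed level was 1.94 RPM in MHs against 0.968 in SHs, which is a log2 ratio of -1.01 (-1.70 to -0.30). E2f8 (chromosome 7, 48866429 to 48881596, minus strand) had 28 MH reads and 32 SH reads. Its level was 1.65 RPM in MHs against 0.755 in SHs, which is a log2 ratio of -1.13 (-1.90 to -0.34), or 2.18-fold higher in MHs (1.27 to 3.74). Among the 2557 genes with a similar number of reads, 8.80% had a lower ratio. E2f7 (chromosome 10, 110745439 to 110787384, plus strand) had 5 MH reads and 9 SH reads, which gave a log2 ratio of -0.53 with an interval of -2.20 to 1.45. The log2 ratio of E2f7 differed from that of E2f8 by 0.65 (-1.28 to 2.74), so these reads could not tell the 2 factors apart. E2f8 took 84.8% (68.1 to 94.9) of their reads in MHs and 78.0% (62.4 to 89.4) in SHs.

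The gene Gm2788 lies on the opposite strand to E2f8 and shares 610 bases of its exons, which is 11.2% of the exon length of E2f8. It had 201 MH reads and 282 SH reads, for a log2 ratio of -0.83 (-1.10 to -0.56). Whether the counting used strand is not given in the sources used here, so reads in the shared bases cannot be told apart. Other members also shared exon bases with a gene of the opposite strand. Ccnd1 shared 1100 bases, 23.4% of its exon length, with Oraov1, which had 71 MH reads and 159 SH reads. Ccnd3 shared 361 bases with Bysl, which had 210 and 654. Cdkn1c shared 625 bases, 30.65% of its exon length, with Gm44732, for which no count was given. Cdkn1a shared 273 bases with AC167363.2 and Ccnd2 shared 372 with Gm43126, which had no count either. The antisense gene 9330179D12Rik at Ccnd2 and the antisense gene 1700020G17Rik at E2f7 had 0 reads in both libraries. That is below the level of 3 reads, which was 0.177 RPM in MHs and 0.0708 in SHs.

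Trp53 was slightly higher in SHs, and the interval of Mdm2 included 0. Trp53 (chromosome 11, 69580359 to 69591873, plus strand), which encodes p53, had 215 MH reads and 636 SH reads. Its level was 12.7 RPM in MHs against 15.02 in SHs, which is a log2 ratio of 0.24 (0.02 to 0.48), or 1.19-fold higher in SHs (1.01 to 1.39). Of all genes with at least 10 reads, 78.2% had a lower ratio than Trp53. Mdm2 (chromosome 10, 117688875 to 117710758, minus strand) had 374 MH reads and 1018 SH reads, levels of 22.0 and 24.0 RPM, and a log2 ratio of 0.12 (-0.05 to 0.30). The log2 ratio of Trp53 differed from that of Mdm2 by 0.12 (-0.17 to 0.41). Trp53 took 36.5% (32.6 to 40.5) of the reads of the pair in MHs and 38.5% (36.1 to 40.9) in SHs. The summed level of the pair was 34.69 RPM in MHs against 39.05 in SHs, which is a log2 ratio of 0.17 (0.03 to 0.31).

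Copies of 2 members with at least 90% identity were found in the annotation. Trp53-ps matched Trp53 over 1170 bases and had 0 MH reads and 1 SH read. Ccnd3-ps matched Ccnd3 over 881 bases and had 4 MH reads and 10 SH reads. How reads shared with these copies were assigned is not given in the sources used here.

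**Figure D3:**
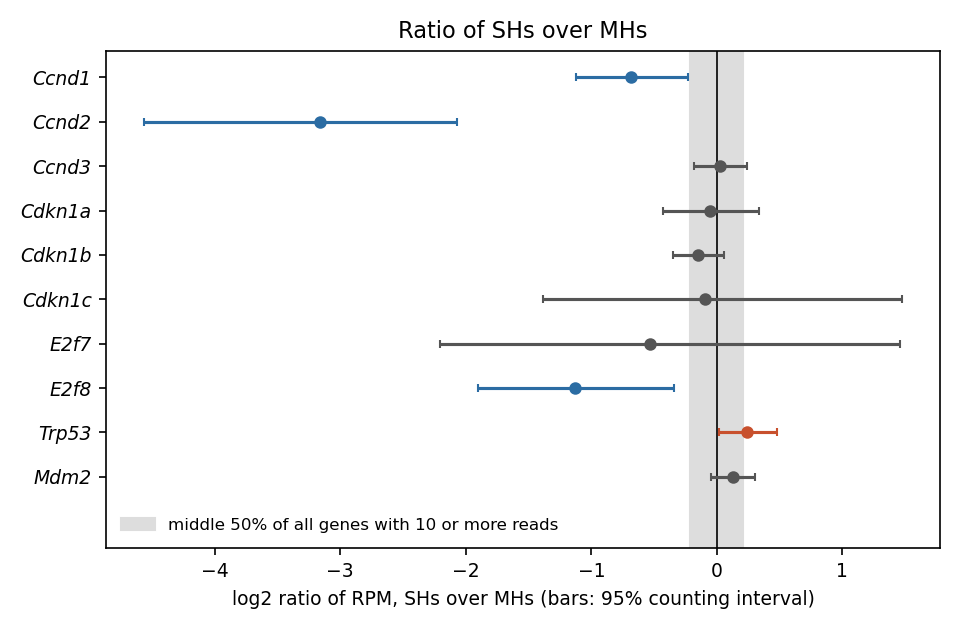
Log2 ratio of RPM in SHs over MHs for each of the 10 genes, with 95% intervals for counting error and a line at 0. The intervals of Ccnd1, Ccnd2 and E2f8 lie under 0, that of Trp53 lies over 0 from 0.02 to 0.48, and the other 6 include 0.

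**Figure D4:**
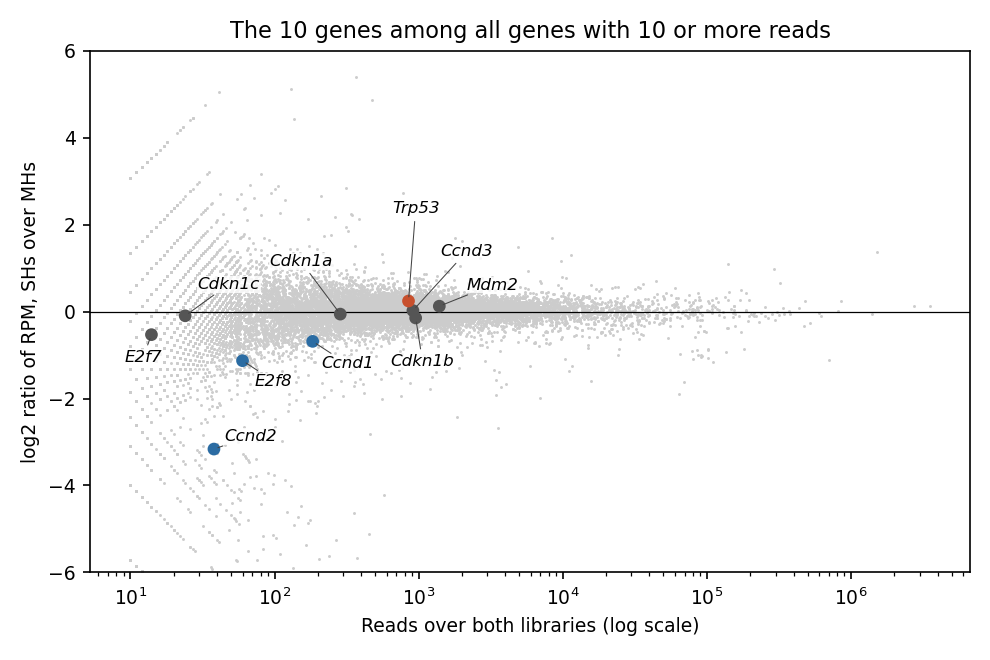
Log2 ratio of RPM in SHs over MHs against reads over both libraries (log axis) for the 15521 genes with at least 10 reads, in grey, with the 10 genes as large points (blue, interval under 0; orange, interval over 0; dark grey, interval including 0). 33 genes lie outside the plotted range of 6 either way, and the spread of the grey points narrows as reads increase. Ccnd2 lies low for its number of reads, with 4.39% of the genes of similar reads below it.

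Other genes of the same pathways were described from lists, by how many had an interval on each side of 0. Over all genes with at least 10 reads, 15.5% were lower and 16.8% were higher. Among the 9 G1 kinases, E-type cyclins and their activators, 1 was lower and 0 were higher, and the median log2 ratio was -0.11. Cdk4, the partner of the D-type cyclins, had 291 MH reads and 733 SH reads, for a log2 ratio of 0.01 (-0.18 to 0.21). The lower gene was Ccne2, which encodes cyclin E2, with 14 and 11 reads and a log2 ratio of -1.65 (-2.95 to -0.42). Cdk7 had a log2 ratio of -0.05 and Mnat1, which encodes a partner of Cdk7, one of 0.14, with intervals that included 0.

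The INK4 inhibitors, which bind Cdk4 and Cdk6, were scarce. Cdkn2c (p18) had 32 MH reads and 107 SH reads, for a log2 ratio of 0.41 (-0.16 to 1.04), and Cdkn2d (p19) had 23 and 63. Cdkn2a and Cdkn2b, known for their increase in senescent cells, had 0 and 2 reads and 1 and 7 reads.

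Among the 11 pocket proteins, other E2F factors and their dimer partners, 1 was lower and 1 was higher, with a median log2 ratio of -0.02. Tfdp1, the dimer partner of activating E2Fs, had 191 MH reads and 370 SH reads, for a log2 ratio of -0.37 (-0.62 to -0.11). E2f2 had 31 and 116 reads and a log2 ratio of 0.57, whose lower bound was 0.00. Rbl2, which encodes the pocket protein p130 of quiescent cells, had 564 and 1372 reads and a log2 ratio of -0.04 (-0.18 to 0.11), and E2f4, its usual E2F partner, had 212 and 531 reads.

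Of the kinases, ligases and relatives of p53, 8 of 10 had at least 10 reads, of which 1 was lower and 0 were higher. The lower gene was Atr, a kinase of the replication stress response, with 207 MH reads and 353 SH reads, for a log2 ratio of -0.55 (-0.80 to -0.29). Mdm4, the relative of Mdm2 that restrains p53, had 420 and 993 reads and a log2 ratio of -0.08 (-0.24 to 0.09). Usp7, a deubiquitinase of Mdm2 and p53, had 666 and 1617 reads and a log2 ratio of -0.04. Chek1 (-1.16) and Ppm1d (0.33) were the ends of the range, and both intervals included 0.

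The p53 target genes were split. Of 24 listed, 22 had at least 10 reads, 6 were higher, 3 were lower and 13 had an interval that included 0, with a median log2 ratio of 0.06. Those higher made up 27.3% of the 22 and those lower 13.6%, beside 16.8% and 15.5% of all genes. Bax and Bbc3, which encode the apoptosis inducers BAX and PUMA, had 144 and 70 reads in MHs and 475 and 283 in SHs. Their log2 ratios were 0.40 (0.13 to 0.68) and 0.69 (0.31 to 1.10). Gadd45a, a stress response gene, had a log2 ratio of 0.36 (0.21 to 0.50), Rrm2b, a ribonucleotide reductase subunit, one of 0.85 (0.06 to 1.80), and Plk3 one of 0.10 (0.02 to 0.18). Phlda3 had 0 MH reads and 15 SH reads, which is 2.00-fold higher with the MH count set to 3 reads. The interval of its log2 ratio had a lower bound of 0.52 and no upper bound. On the other side, the antiproliferative gene Btg2 had 3367 MH reads and 6218 SH reads, for a log2 ratio of -0.43 (-0.49 to -0.37). The death receptor gene Fas had a log2 ratio of -0.47 (-0.72 to -0.20), and Eda2r, with 9 and 7 reads, had one of -1.66 (-3.34 to -0.09).

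Genes that govern p27 turnover and the end of mitosis mostly had intervals that included 0. Among the 5 parts of the ligases that degrade p27 and E-type cyclins, Cul1 was higher, with a log2 ratio of 0.16 (0.02 to 0.30). Skp2, which recognises p27, had 40 MH reads and 66 SH reads, for a log2 ratio of -0.60 (-1.18 to 0.01), and Skp1a one of 0.04. Of the 9 cytokinesis and PIDDosome genes, whose proteins limit or sense failed division, 8 had at least 10 reads, 1 was higher and 0 were lower. The higher gene was Rhoa, at 0.12 (0.01 to 0.23). Aurkb, the kinase of the division plane, had 4 and 25 reads and a log2 ratio of 1.18 (-0.21 to 3.31), Anln one of -0.49, and Cradd, the adaptor of the PIDDosome, one of 0.17.

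Genes of S phase and mitosis did not move as 1 group. Of 17 listed, 16 had at least 10 reads, 4 were lower, 3 were higher and 9 had an interval that included 0, with a median log2 ratio of -0.04. Those lower made up 25% of the 16 and those higher 18.75%, beside 15.5% and 16.8% of all genes. The 4 lower genes were Mcm2, Mcm3, Mcm5 and Mcm6, subunits of the replicative helicase, with log2 ratios of -0.79 (-1.47 to -0.07), -0.73 (-1.31 to -0.12), -1.19 (-1.93 to -0.43) and -1.08 (-1.78 to -0.36). They had 31 to 41 reads each in MHs and 34 to 62 in SHs. Among genes with a similar number of reads, the share with a lower ratio ran from 7.40% for Mcm5 to 11.8% for Mcm2. The higher genes were Mki67, the marker of cycling cells, with 29 and 112 reads and a log2 ratio of 0.61 (0.03 to 1.27), Rrm2 at 0.56 (0.09 to 1.07), and Ccnb2, which encodes cyclin B2, with 3 and 29 reads and 1.76 (0.26 to 4.31). Pcna, the clamp of DNA polymerase, had 215 and 564 reads and a log2 ratio of 0.07 (-0.16 to 0.31). Tyms had one of 0.28 and Ccnb1 one of -1.32 (-2.67 to 0.03).

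**Figure D5:**
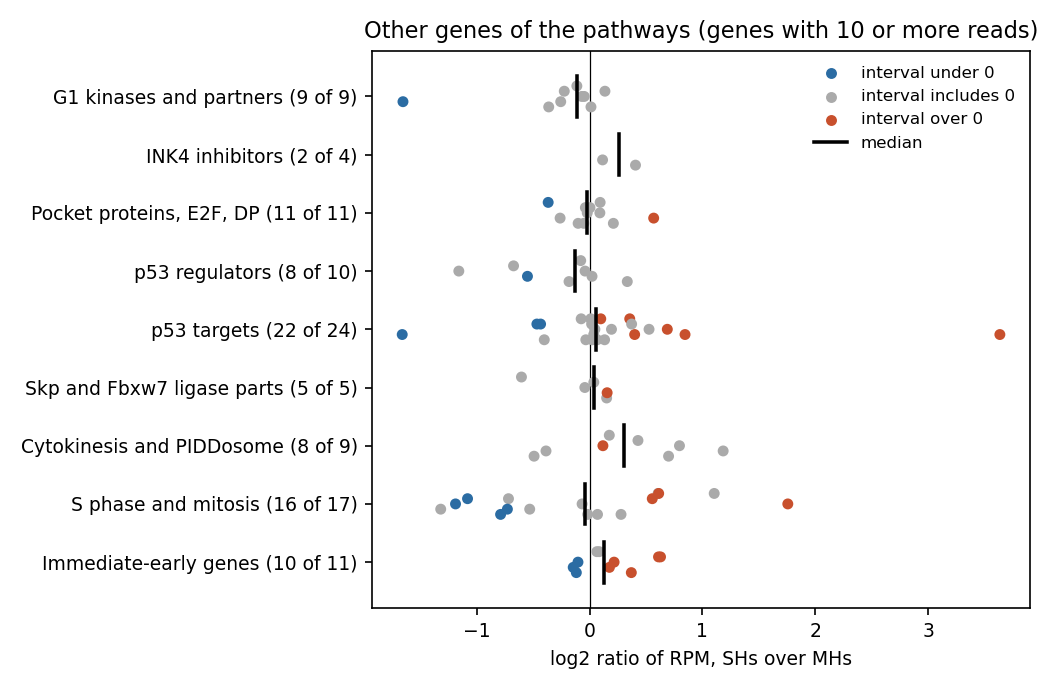
Log2 ratio of RPM in SHs over MHs for the genes with at least 10 reads in each pathway list, with 1 point per gene coloured by the side of 0 on which its interval lies and a bar at the median of the list. Medians run from -0.13 for the p53 regulators to 0.30 for the cytokinesis and PIDDosome genes, and the point farthest right, Phlda3, had 0 reads in MHs, so its place depends on the 0.5 added reads.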

How the data were processed

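RNA-seq was performed on 1 library of MHs and 1 library of SHs. The authors deposited raw read counts per gene symbol for both. The methods describe trimming, alignment to mm10 in CLC Genomics Workbench and RPKM, whereas the program, annotation and strand setting behind the deposited counts are not given in the sources used here.

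RPM, log2 ratios with 0.5 added reads and 95% Clopper-Pearson intervals were computed in Python 3.11.15 (numpy 2.4.6, pandas 2.3.3, scipy 1.17.1). A difference between 2 genes' ratios came from the conditional odds ratio with its exact interval. Summaries took genes whose reads in the libraries together came to at least 10. With 1 library per group, no p-value was computed. The calculation was tested on simulated counts. Coordinates, exon lengths and overlaps came from GENCODE M21, in which 39469 of 43280 symbols were found, holding 93.3% of MH reads and 91.6% of SH reads. Copies were searched with blastn 2.17.0 at a minimum of 90% identity over 200 bases. Alternative scalings were edgeR's TMM (4.0.16), DESeq2's size factors (1.42.0), the total less the 10 most counted genes, and the protein-coding total.

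The members and lists were chosen with earlier results of these data known. The genes to be named were the 10 members, from each pathway list the 2 genes with the most reads and those with the lowest and highest ratio, and from each marker list the gene with the most reads in MHs. Genes outside this rule were named after their values were seen. From the pathway lists these were Cdkn2a, Cdkn2b, Atr, Bax, Bbc3, Gadd45a, Rrm2b, Fas, Mcm2, Mcm3, Mcm5, Mcm6, Mki67, Rrm2, Atf3, Junb, Egr1, Ier2 and Ier3. From the marker lists they were Lyve1, Sox9, Epcam, Krt19, Krt7 and Cftr. The overlapping genes and copies were also outside the rule.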

Additional observations from a re-analysis of the deposited data

How the results depend on the processing

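No paired analysis was possible because each group had a single library, and leaving out a replicate was not possible for the same reason. The 50 recomputed log2 ratios of the 10 genes, under 4 other scalings and with 2 added reads, all stayed within their main intervals. Under the scalings 0 of the 10 genes changed the side of 0 on which its interval lay. Each scaling raised every log2 ratio by the same small amount, from 0.009 to 0.032, so little change was possible under them. The median of the members ranged from -0.20 with 2 added reads to -0.02 with a minimum of 100 reads. With that minimum, members with an interval under 0 fell to 1, Ccnd1, and members at least 2-fold lower to 0, because Ccnd2 and E2f8 had fewer reads. That minimum left out the 4580 of the 15521 genes that had 10 to 99 reads. Among all genes that remained, 1777 had an interval under 0, 128 were at least 2-fold lower and 61 at least 2-fold higher. At a 1.5-fold threshold, 3 members were lower, beside 962 of all 15521 genes, and 0 were higher, beside 543. All 88 list counts under the scalings stayed within 1.5 times of the main count, and with at least 100 reads the lower genes of S phase and mitosis were 1. Per exon length, the share of Ccnd3 among the D-type cyclins was 61.4% in MHs and 75.2% in SHs, that of Ccnd1 31.9% and 23.96%, and that of Cdkn1c among the inhibitors 3.75% and 3.96%, and 13 of 20 such shares left the interval of the share of reads. Depth limited Cdkn1c, E2f7, E2f8 and Ccnd2 most.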

Other observations

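The immediate-early genes, which respond within minutes to growth signals and to cell isolation, ranged widely in level, from Jun with 467 RPM in MHs and 528 in SHs to Ier3 with 4 reads in each library. Of 11 listed, 10 had at least 10 reads, 5 were higher in SHs and 3 were lower, with a median log2 ratio of 0.13, beside 16.8% higher and 15.5% lower among all genes. Fos, Jun and Dusp1 had at least 3278 reads in each library, so their intervals were narrow and small differences were called. The higher genes were Fos at 0.61 (95% interval 0.56 to 0.67), Klf6 at 0.63 (0.16 to 1.15), Atf3 at 0.37 (0.27 to 0.47), Jun at 0.18 (0.14 to 0.21) and Junb. The lower genes were Dusp1, a phosphatase that ends MAP kinase signalling, at -0.14 (-0.19 to -0.10), Egr1 and Ier2. The interval of Egr1 included 0 when the 10 most counted genes were taken out of the totals.

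Markers of cholangiocytes, cells that the EpCAM- gate would remove from the SHs and that no sort removed from the MHs, had a summed level of 13.96 RPM in MHs and 14.14 in SHs. Of 6 listed, only Sox9 and Spp1 had at least 10 reads. These 2 genes held nearly all reads of the sum, and they differed in direction. Sox9, with 92 MH reads and 325 SH reads, was higher in the SH library, its log2 ratio being 0.50 (0.16 to 0.85). Spp1, with 136 and 271, was lower, with one of -0.33 (-0.63 to -0.02). Epcam itself had 6 and 1 reads, Krt19 and Krt7 had 1 and 1 each, and Cftr had 1 and 0. Among 4 lymphocyte markers, Ptprc alone had at least 10 reads, with 9 in MHs and 5 in SHs.

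The E2F letters TTGGCGC or TTCCCGC stood in 7 of the 16 promoter windows read for the genes of S phase and mitosis, and in 2 of the 21 windows read for the p53 target genes, beside 5.62% of all windows. The p53 half-site stood in 1 and 7 of these windows, beside 7.13% of all windows.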
